A study of Mus musculus with 32 samples.

Results

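Replication licensing was followed through the mRNA of 10 genes in mouse epidermis: the 6 subunits of the MCM helicase ring (Mcm2, Mcm3, Mcm4, Mcm5, Mcm6 and Mcm7), the loaders Cdt1 and Cdc6, the Cdt1 inhibitor Gmnn, and the initiation factor Mcm10. They form a group by function and were matched by name, though with earlier results of these data known. All 10 were found by symbol among the 55401 gene identifiers counted. All 10 passed the filter on low counts, a minimum of 1 cpm in any 1 mouse, which left 15546 genes to test. Levels are given in cpm, the usual count scaled to the TMM-adjusted size of the library. Each of the 10 genes had between 52 and 2361 reads in each mouse.

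RNA came from the epidermis of 32 mice, 1 library each, all on the SKH-1/SV129/BL6/J background and aged 10 to 14 weeks. Wild-type (WT) mice and littermates lacking PPARβ/δ (KO, Ppard-/-) were either sham-handled (Control) or had the back irradiated once with UV, at 120 mJ/cm², and were sampled after 24 h (UV). Each combination of genotype, sex and treatment held 4 mice, making 8 groups. The labels give each Control mouse as T0 and each UV-exposed mouse as T24. Treatment and time label thus coincide in all 32 mice and cannot be told apart. The sources used here do not name the deleted part of Ppard, so its reads do not check the genotype label.

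Licensing prepares each replication origin once per cell cycle. In G1, the origin recognition complex, Cdc6 and Cdt1 place pairs of MCM rings around DNA. In S phase, Cdc45 and GINS turn the rings into active helicases with the help of Mcm10, while geminin, the product of Gmnn, and proteolysis keep Cdt1 from loading more. Many of these genes are known targets of E2F transcription factors. In epidermis, dividing cells sit mainly in the basal layer, and the layers above have left the cycle.

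Over both sexes, UV raised most licensing mRNAs in both genotypes, with Cdt1 and Mcm5 in front. Cdc6, which acts beside Cdt1, went the other way. In WT females alone, 3 of the 10 were called higher and 2 lower, where 30.1% and 31.1% of all genes were. In WT males alone, 7 were called higher and 1 lower, where 29.8% and 31.1% of all genes were. Mcm6 parted from the other ring subunits. Over both sexes it fell slightly in WT and rose slightly in KO, though some alternatives lost these calls. Its level relative to the other ring subunits was lower in every UV-exposed mouse than in every Control mouse. That ratio was picked with its values in view and was not tested. Of 12 mitosis genes, 0 rose and 7 fell in WT, where 36.5% of all genes tested fell. In KO, 4 of the 12 rose and 0 fell, where 37.3% of all genes tested rose. In WT males 1 was higher and 1 lower, where 29.8% and 31.1% of all genes were. In WT females 0 were higher and 7 lower, where 30.1% and 31.1% of all genes were. The test of whether the WT change differed by sex called 0 of the 15546 genes at the adjusted threshold (edgeR). The change with UV was more positive in KO than in WT for all 10 genes in the estimates, but none of these differences passed the adjusted threshold.

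Because E2F sites are the textbook link among these promoters, the upstream stretches of 3 genes with unlike estimates over both sexes are shown. Mcm5 rose in both genotypes. Mcm6 had estimates of opposite sign, though their difference did not pass the adjusted threshold. Cdc6 fell in both, though KO females alone did not pass. RefSeq promoter windows on GRCm38.p6 (250 bases before to 50 after a gene's start) were at hand for 8 of the 10 genes, not for Mcm4 or Gmnn. The windows were searched on both strands for TTTNNCGC, a loose form of the E2F site. Matches on opposite strands may overlap. Each line gives the 160 bases before the start, 5′ to 3′ on the gene's strand, with matches in capitals.
Mcm5, chr8:75109349-75109508, plus strand: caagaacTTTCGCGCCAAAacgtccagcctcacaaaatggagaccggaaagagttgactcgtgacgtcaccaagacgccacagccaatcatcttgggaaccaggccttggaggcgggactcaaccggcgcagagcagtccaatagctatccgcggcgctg
Mcm6, chr1:128359706-128359865, minus strand: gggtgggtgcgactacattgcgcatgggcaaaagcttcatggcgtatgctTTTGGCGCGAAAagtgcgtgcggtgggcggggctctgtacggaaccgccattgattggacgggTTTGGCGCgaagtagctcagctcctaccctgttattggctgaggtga
Cdc6, chr11:98907991-98908150, plus strand: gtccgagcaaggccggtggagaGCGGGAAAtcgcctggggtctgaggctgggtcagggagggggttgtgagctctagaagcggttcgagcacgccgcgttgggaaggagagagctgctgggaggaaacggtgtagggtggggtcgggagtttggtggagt

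The Mcm5 stretch held 2 overlapping matches and the Mcm6 stretch 3, of which 2 overlap, while Cdc6 held 1. The Cdc6 stretch lies upstream of the RefSeq start but inside an intron of longer GENCODE transcripts of the gene. The 8 genes have 9 windows of 300 bases, since Mcm7 has 2, and 6 of the 9 held a match (Mcm3, Mcm5, Mcm6, Cdt1, Cdc6 and 1 of Mcm7), where 5.17% of the 32851 windows of all genes did. Mcm2, Mcm10 and the other Mcm7 window had none. So the letters were present in the gene whose mean fell in both genotypes and in the gene whose estimates differed in sign, as well as in genes that rose.

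Cdt1 (ENSMUSG00000006585, chr8:122568015-122573554, GRCm38), the loader that brings MCM rings to the origin, had the largest rise of the 10 genes. In WT males it stood at 8.86, 4.57, 4.88 and 5.35 cpm in the Control mice and at 13.9, 17.5, 19.5 and 15.4 cpm after UV. In WT females the Control mice had 11.4, 6.74, 5.37 and 9.89 cpm and the UV-exposed mice 15.7, 23.7, 20.2 and 18.9 cpm. Every UV-exposed WT mouse was above every WT Control mouse. In KO males the values were 4.04, 4.99, 3.17 and 4.66 cpm without UV and 18.8, 16.2, 20.3 and 18.3 cpm with it. In KO females they were 5.54, 6.25, 7.58 and 6.31 cpm, and 27.3, 14.6, 23.2 and 22.9 cpm. The KO groups were also fully apart. Over both sexes the log2 fold change was 1.36 ± 0.16 (SE) in WT and 1.95 ± 0.16 in KO, 2.56-fold and 3.86-fold, with adjusted P values of 1.39e-08 and 2.00e-11 (edgeR quasi-likelihood test, Benjamini-Hochberg over all genes tested).

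Cdc6 (ENSMUSG00000017499, chr11:98907801-98923940), an ATPase that joins the origin recognition complex before Cdt1 arrives, fell in WT. The WT Control mice had 11.01, 9.02, 7.96 and 7.33 cpm in males and 9.71, 8.96, 6.63 and 7.05 cpm in females. The UV-exposed WT mice had 5.89, 4.00, 5.39 and 6.09 cpm in males and 6.29, 4.04, 5.12 and 6.25 cpm in females. The highest UV-exposed WT mouse was thus below the lowest Control mouse, and the log2 fold change was -0.65 ± 0.13 (adjusted P value 6.65e-05). In KO males the fall was similar, from 11.8, 7.83, 8.88 and 11.1 cpm to 5.47, 6.42, 6.52 and 7.20 cpm (log2 fold change -0.63 ± 0.18, adjusted P value 0.00405). KO females had 7.09, 8.04, 6.75 and 6.53 cpm without UV and 5.59, 5.68, 8.95 and 7.39 cpm with it, and these overlapped (-0.04 ± 0.18, adjusted P value 0.866). The sex difference in the KO response was 0.59 ± 0.26 on the log2 scale (unadjusted p = 0.0309, adjusted P value 0.461). The KO mean over both sexes, -0.33 ± 0.13, passed (adjusted P value 0.0229), but not without the UV-exposed KO female 54F (-0.28, adjusted P value 0.0646), nor without 34M or 52F.

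Cdt1 therefore rose relative to Cdc6. On the log2 scale, Cdt1 minus Cdc6 ranged from -1.55 to 0.49 over the 16 Control mice and from 1.24 to 2.55 over the 16 UV-exposed mice. Every UV-exposed mouse had more Cdt1 than Cdc6 reads, with a mean of 1.67 ± 0.39 (SD, n = 16) against -0.50 ± 0.59 without UV. The ratios given here and below were picked with their values in view and are descriptions with no test. In cpm, the Control mean of Cdt1 was below that of Cdc6, at 7.13 against 8.46 in WT and 5.32 against 8.50 in KO. Exon lengths here merge all annotated exons of a gene, 3140 bases for Cdt1 and 5229 for Cdc6. Per kilobase of exon and over both sexes, the Cdt1 mean was above the Cdc6 mean in Control epidermis, though close to it. The Control order thus depends on dividing by these lengths. In WT the means were 2.27 ± 0.82 for Cdt1 and 1.62 ± 0.28 cpm per kb for Cdc6 (SD, n = 8). After UV they were 5.76 ± 1.00 and 1.03 ± 0.18 cpm per kb. In KO they were 1.69 ± 0.45 and 1.63 ± 0.38 cpm per kb in Control, and 6.43 ± 1.32 and 1.27 ± 0.22 after UV.

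Gmnn (ENSMUSG00000006715, chr13:24751845-24761923), whose product geminin binds Cdt1 and blocks loading, lagged behind Cdt1. It ranged from 4.15 to 10.3 cpm in WT Control and from 5.20 to 11.5 cpm in WT UV, ranges that largely overlap (log2 fold change 0.28 ± 0.19, adjusted P value 0.202). Without the WT Control female 61F, which had the highest value of its group, the WT difference was 0.43 with an adjusted P value of 0.0457. In KO, Gmnn rose, with a Control range of 3.91 to 8.67 cpm and a UV range of 6.74 to 16.6 cpm (0.84 ± 0.19, adjusted P value 0.000355). Cdt1 minus Gmnn was between -0.66 and 0.72 on the log2 scale in Control mice and between 0.49 and 2.19 after UV. The means were -0.05 ± 0.40 and 1.06 ± 0.42 (SD, n = 16 each), and the ranges overlap. By genotype, the mean went from 0.03 to 1.13 in WT and from -0.13 to 0.99 in KO.

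**Figure D1:**
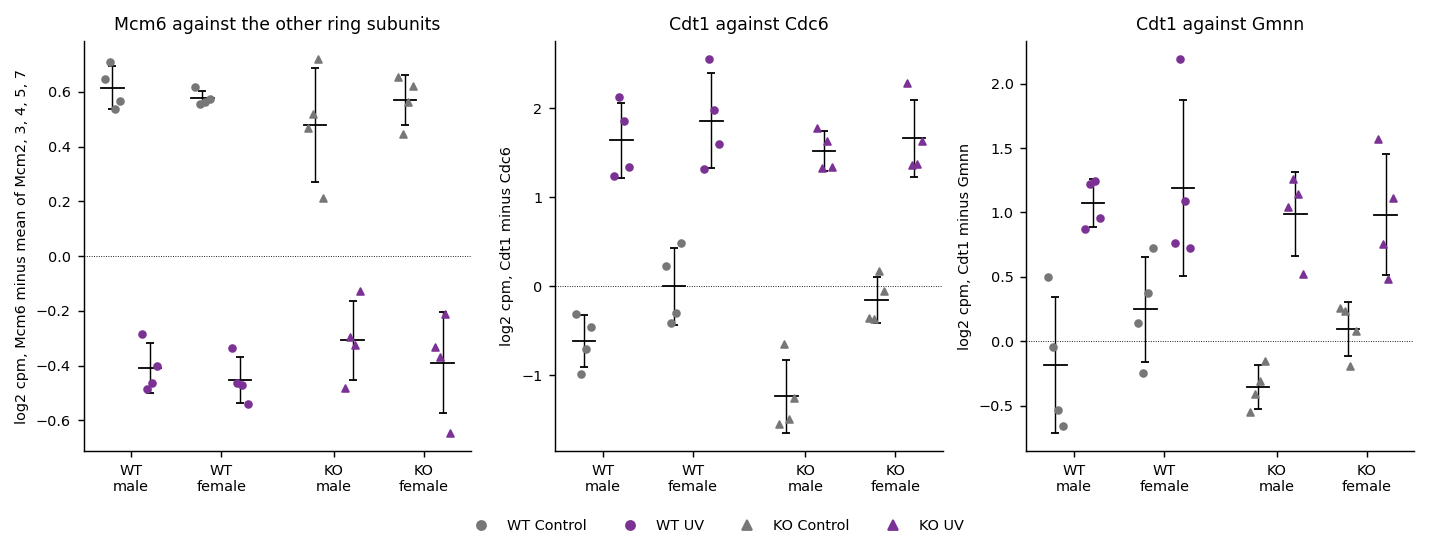
Log2 ratios within each mouse by group (x axis: genotype and sex; grey, Control; purple, UV; circles, WT; triangles, KO; bars, mean and SD of 4 mice). The y axes give differences of log2 cpm: Mcm6 minus the mean of the other ring subunits, Cdt1 minus Cdc6, and Cdt1 minus Gmnn. The Control and UV-exposed mice are fully apart for Mcm6 (0.21 to 0.72 against -0.64 to -0.13) and for Cdt1 against Cdc6, and overlap for Cdt1 against Gmnn.

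Among the ring subunits, Mcm5 (ENSMUSG00000005410, chr8:75109569-75128439) rose most. WT males had 23.8, 9.54, 14.9 and 24.8 cpm without UV and 40.9, 31.0, 52.2 and 45.2 cpm with it. WT females had 36.6, 28.2, 12.6 and 23.6 cpm, and 38.5, 29.6, 47.4 and 43.2 cpm. The WT males were fully apart, while WT Control females overlapped the UV-exposed females. KO males went from 15.5, 17.0, 11.1 and 11.9 cpm to 34.01, 36.4, 46.0 and 48.3 cpm. KO females went from 14.9, 18.5, 27.8 and 14.4 cpm to 57.2, 47.7, 77.4 and 62.7 cpm. All 8 UV-exposed KO mice were above all 8 KO Control mice, and the log2 fold changes were 0.93 ± 0.20 in WT (1.91-fold, adjusted P value 0.000152) and 1.63 ± 0.20 in KO (3.10-fold, adjusted P value 4.93e-08).

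Mcm4 (ENSMUSG00000022673, chr16:15623897-15637400) was fully apart between treatments. Its Control range was 25.1 to 37.2 cpm in WT and 21.4 to 34.9 cpm in KO, and its UV range 40.4 to 54.2 and 44.2 to 72.5 cpm. The 4 UV-exposed WT males lay within 53.03 to 54.2 cpm. The log2 fold change was 0.71 ± 0.10 in WT and 1.04 ± 0.10 in KO (adjusted P values 3.02e-07 and 3.69e-10). Mcm4 was also the most abundant of the 10 genes per kilobase of exon in each genotype and treatment, at 8.62 ± 1.33 cpm per kb in WT Control and 14.1 ± 1.30 in WT UV (SD, n = 8).

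Mcm2 (ENSMUSG00000002870, chr6:88883474-88898780) and Mcm3 (ENSMUSG00000041859, chr1:20802968-20820312), both neighbours of Mcm5 in the ring, rose in both genotypes. Mcm2 went from a median of 19.4 cpm (9.72 to 27.6) to 28.1 cpm (21.9 to 30.3) in WT and from 12.9 cpm (7.56 to 23.4) to 30.1 cpm (23.0 to 49.3) in KO. Mcm3 went from 19.2 cpm (11.5 to 25.6) to 29.2 cpm (20.8 to 34.1) in WT and from 13.1 cpm (8.13 to 20.3) to 32.6 cpm (23.4 to 56.8) in KO. In WT both genes overlapped between treatments. In KO, Mcm3 did not overlap, and the highest Mcm2 Control value, 23.4 cpm in the female 62F, only just exceeded the lowest UV value. The log2 fold changes were 0.56 ± 0.19 and 1.23 ± 0.19 for Mcm2 (adjusted P values 0.00948 and 1.94e-06) and 0.71 ± 0.17 and 1.36 ± 0.18 for Mcm3 (0.000667 and 1.04e-07), WT first.

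Mcm7 (ENSMUSG00000029730, chr5:138164583-138172422) showed the smallest WT rise among the subunits that rose. WT males had 32.6, 21.2, 22.3 and 33.1 cpm without UV and 33.5, 37.7, 43.6 and 37.0 cpm with it, and WT females 38.9, 29.3, 21.9 and 31.2, and 32.3, 39.5, 41.7 and 31.5 cpm. The WT ranges overlapped, with a log2 fold change of 0.37 ± 0.11 (adjusted P value 0.00495). KO Control mice were lower and tighter, at 22.5, 21.0, 19.6 and 21.7 cpm in males and 22.6, 23.5, 25.6 and 23.8 cpm in females. After UV they had 47.2, 31.8, 40.4 and 39.2 cpm in males and 41.6, 35.9, 52.6 and 49.6 cpm in females. These were fully apart (0.91 ± 0.11, adjusted P value 5.29e-08). Exons of Mcm7 overlap those of Cops6 and Ap4m1 on the opposite strand. The kit kept the strand, but the strand setting of the counting is not given in the sources used here, so a share of the Mcm7 reads may belong to these neighbours.

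Mcm6 (ENSMUSG00000026355, chr1:128331590-128359664) was the exception in the ring. WT males had 38.7, 23.5, 24.9 and 38.3 cpm in Control and 30.2, 24.3, 28.7 and 28.5 cpm after UV. WT females had 50.2, 41.1, 22.4 and 36.6 cpm in Control and 26.2, 21.2, 29.2 and 24.96 cpm after UV. Both pairs of groups overlapped, because the Control mice 54M, 56M and 71F were as low as the UV-exposed mice. The WT log2 fold change was -0.37 ± 0.15 (adjusted P value 0.0349), and without 61F it was -0.24 with an adjusted P value of 0.160. KO males had 23.1, 27.8, 20.4 and 18.0 cpm in Control and 24.3, 26.1, 31.3 and 37.8 cpm after UV. KO females had 25.8, 26.1, 38.4 and 26.3 cpm and 33.9, 29.2, 52.5 and 32.2 cpm. The KO groups overlapped too, with a log2 fold change of 0.38 ± 0.15 (adjusted P value 0.0290). Both Mcm6 calls were lost under some alternatives, 13 of 39 in WT and 9 of 39 in KO, with adjusted P values of up to 0.160 and 0.105. Within a sex, edgeR called the WT fall in females (-0.57 ± 0.22, adjusted P value 0.0260) but not in males (-0.17 ± 0.22, 0.520). The KO rise passed in neither sex (edgeR adjusted P values 0.0970 in males and 0.175 in females).

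Set against the other 5 subunits of the same mouse, a ratio picked with its values in view, Mcm6 separated the treatments without overlap. Its log2 cpm minus their mean was 0.65, 0.71, 0.54 and 0.57 in WT Control males and 0.62, 0.55, 0.56 and 0.57 in WT Control females. After UV it was -0.28, -0.49, -0.46 and -0.40 in WT males and -0.34, -0.46, -0.47 and -0.54 in WT females. The 8 WT Control mice thus lay close together in this ratio although their Mcm6 level itself ranged from 22.4 to 50.2 cpm. The KO mice ranged from 0.21 to 0.72 in Control and from -0.64 to -0.13 after UV. Over all mice the mean fell from 0.56 ± 0.12 to -0.39 ± 0.13 (SD, n = 16 each). Per kilobase of exon, Mcm6 was second of the 10 genes in Control epidermis of both genotypes (7.39 ± 2.12 cpm per kb in WT) and 6th after UV in WT (5.71 ± 0.65) and 5th in KO (7.16 ± 1.89). Its neighbours in the WT UV order, Cdt1 at 5.76 and Gmnn at 5.69, differed from it by less than the SD.

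Mcm10 (ENSMUSG00000026669, chr2:4989714-5012791), which is not a ring subunit despite its name and helps the loaded helicase to fire, was the least abundant per kilobase (0.51 ± 0.26 cpm per kb in WT Control). It went from a median of 3.58 cpm (2.14 to 8.41) to 6.55 cpm (4.54 to 7.96) in WT and from 2.59 cpm (2.29 to 4.93) to 8.33 cpm (5.08 to 15.5) in KO. The WT ranges overlapped and the KO ranges did not. Its log2 fold change was 0.70 ± 0.23 in WT and 1.61 ± 0.23 in KO (adjusted P values 0.00764 and 5.85e-07). The WT Control female 61F alone had 8.41 cpm, above every UV-exposed WT mouse.

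**Figure D2:**
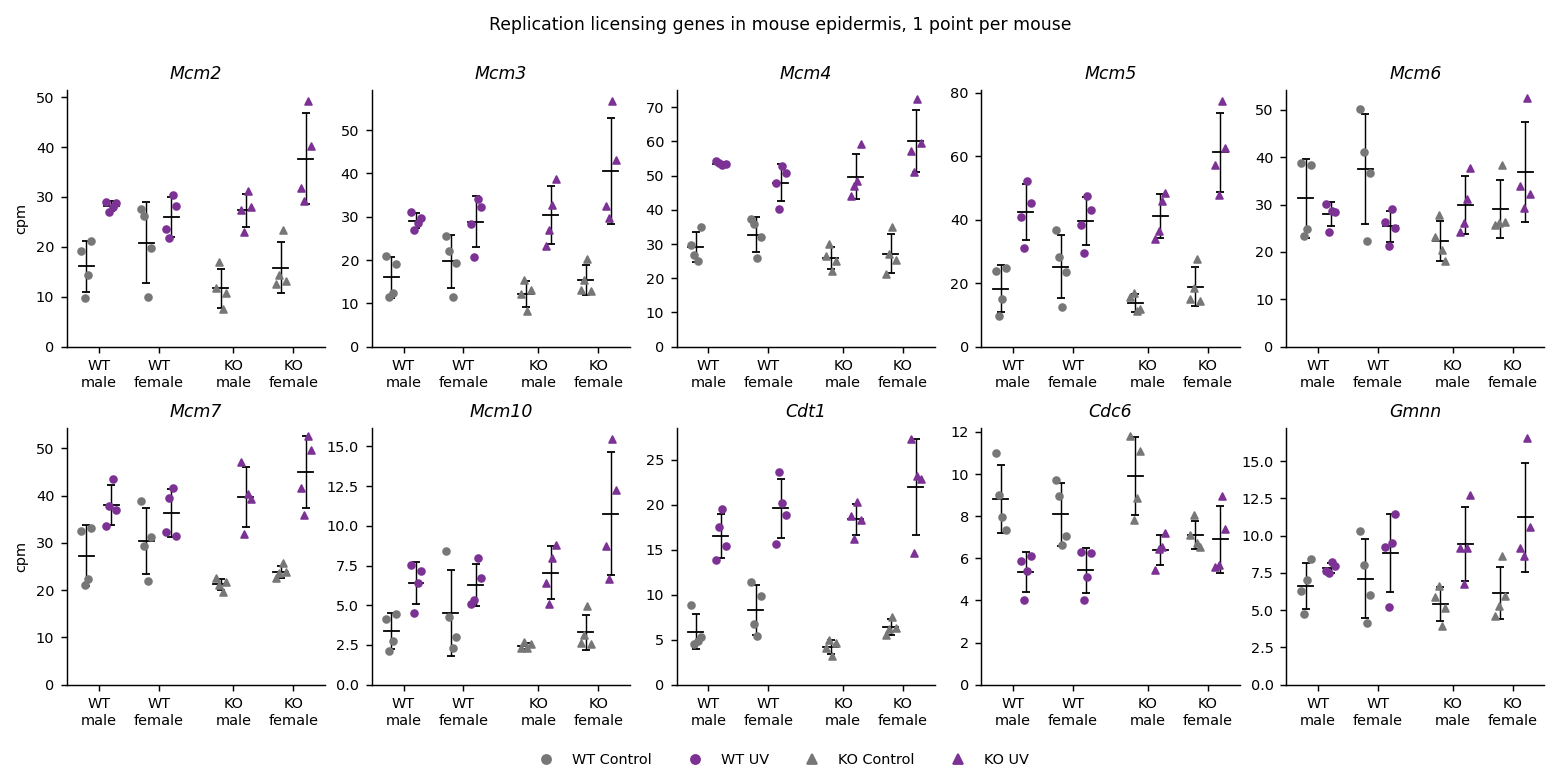
Level in cpm (y axis, linear from 0) of each of the 10 genes in each of the 32 mice, by genotype and sex (x axis). Grey points are Control, purple UV, circles WT and triangles KO, and bars give the mean and SD of 4 mice. Cdt1 and Mcm4 were higher in every UV-exposed mouse of either genotype than in every Control mouse of that genotype, Cdc6 was lower in UV-exposed WT mice, and Mcm6 overlapped.

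Across all genes, 34.5% of those tested were higher and 36.5% lower after UV in WT, and 37.3% and 33.5% in KO. Against that, 7 of the 10 licensing genes were called higher and 2 lower (Mcm6 and Cdc6) in WT, with Gmnn not passing, and 9 were called higher and 1 lower (Cdc6) in KO. The median log2 fold change of the 10 was 0.63 in WT and 1.14 in KO, beside -0.01 and 0.09 over all genes tested. No overlap between the 8 UV-exposed and the 8 Control mice was seen for 43.4% of all genes in WT and 35.1% in KO, and for 3 of the 10 (Cdt1, Mcm4, Cdc6) and 6 of the 10 (Cdt1, Mcm3, Mcm4, Mcm5, Mcm7, Mcm10).

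**Figure D3:**
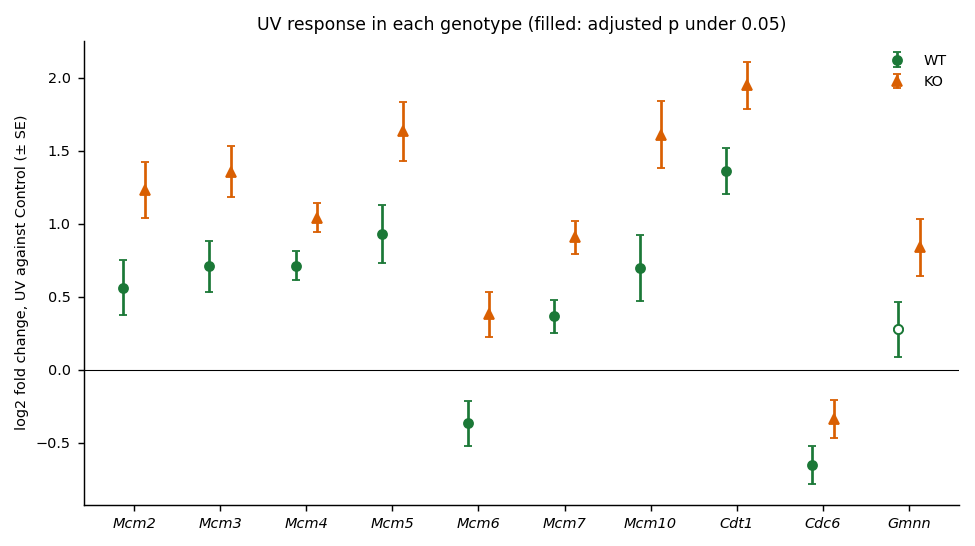
Log2 fold change of UV against Control (y axis, ± SE) for each gene (x axis) in WT (green circles) and KO (orange triangles), 8 mice against 8 in each. Filled symbols passed an adjusted P value of 0.05. Gmnn in WT is the one open symbol, Cdc6 is below 0 in both genotypes, and Mcm6 lies on either side of 0 at -0.37 and 0.38.

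Cells and markers moved with these changes. In bulk RNA, fewer cells of a type and less RNA per cell cannot be told apart. The summed level of 7 suprabasal keratinocyte markers, such as the keratins Krt1 and Krt10 and the cornified envelope protein loricrin (Lor), ranged from 66800 to 77630 cpm in WT Control and from 13250 to 26730 cpm in WT UV, and from 61560 to 106900 and from 8096 to 31900 cpm in KO. Of the 7, 6 fell in WT and 7 in KO, where 36.5% and 33.5% of all genes fell. The sum of 7 basal markers went from a range of 7505 to 16670 cpm to 17360 to 29950 cpm in WT and from 5622 to 12230 to 16960 to 29500 cpm in KO. Its members did not move together: Krt14, Itga6 and Itgb4 rose in both genotypes, Krt15 fell in both (log2 fold change -6.08 in WT), and Krt5 fell in WT. T-cell markers (7 of 7) and Langerhans cell markers (6 of 6) fell in both genotypes, beside the same shares of all genes. How far these shifts enter the licensing values was not tested.

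Targets of p53, which UV damage is known to switch on, were read as a check of the UV label. All 8 on the list rose in both genotypes, where 34.5% of all genes rose in WT and 37.3% in KO. In WT, Cdkn1a, the CDK inhibitor p21, went from a mean of 350 ± 27.2 to 1651 ± 316 cpm (SD, n = 8). Mdm2 went from 71.8 ± 6.47 to 262 ± 31.7 cpm. Ppard itself was lower but not absent in KO, at 70.3 to 88.9 cpm against 87.3 to 105 cpm in WT Control (log2 difference -0.26 ± 0.07, adjusted P value 0.156) and at 175 to 239 against 252 to 326 cpm after UV (-0.42 ± 0.07, adjusted P value 0.00114). Reads on genes numbered 22919428 to 40653581 per mouse (median 27600228), and the RNA quality numbers in the labels run from 6.4 to 8.4. The keratinocyte markers were abundant in each library, while all 4 adipocyte markers and all 5 melanocyte markers had medians under 1 cpm. One library stood apart: the UV-exposed KO female 54F had 1982 cpm over 6 dermal fibroblast markers, beside 92.2 cpm or less in each of the other mice, and 471 cpm over the myeloid and neutrophil markers, beside 176 cpm or less. Skeletal muscle markers varied in every group, from 0.51 to 2462 cpm over all mice. Without 54F the KO log2 fold changes of the 9 genes that rose were larger, from 0.45 for Mcm6 to 2.04 for Cdt1, and all 9 passed.

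Both sexes were sampled, so the response was also read within each. In WT males, where 29.8% of all genes were higher, 31.1% lower and 54.9% without overlap, 7 licensing genes were called higher and Cdc6 lower, and 8 did not overlap. In WT females, with 30.1%, 31.1% and 57.8% of all genes, 3 were called higher (Cdt1, Mcm4 and Mcm5) and 2 lower (Mcm6 and Cdc6), and 3 did not overlap (Cdt1, Mcm4 and Cdc6). In KO males, with 30.9% higher, 30.9% lower and 53.5% without overlap, 8 were called higher and Cdc6 lower, and 9 did not overlap. In KO females, with 34% higher, 26.7% lower and 52.5% without overlap, 8 were called higher and none lower, and 7 did not overlap.

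The difference between the sexes was itself tested and was not detected. In WT, 0 of the 10 genes passed for the sex-by-UV interaction at the adjusted threshold and 0 at an unadjusted p under 0.05, where 0% and 2.7% of all genes did. In KO, 0 passed adjusted and 1 unadjusted (Cdc6), where 0% and 9.53% of all genes did. DESeq2 and limma-trend also gave 0 calls among the 10. The WT estimates for Mcm5 were 1.21 ± 0.28 in males and 0.65 ± 0.28 in females, a difference of -0.56 ± 0.40 (unadjusted p = 0.167). For Mcm4 they were 0.88 ± 0.14 and 0.55 ± 0.14, a difference of -0.32 ± 0.20 (unadjusted p = 0.111). Single mice decided some counts: the WT female count of 5 was 3 without 63F or without 73F, and the WT male count of 8 was 5 without 54M. Without 61F the WT females had 6 calls, all higher.

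The same mice were compared between genotypes. The change with UV was more positive in KO for each of the 10 genes, by 0.31 (Cdc6) to 0.91 (Mcm10) on the log2 scale. Over all genes tested the median of this difference was 0.035. The 10 genes also correlated between mice of a group, as given below, so their signs are not separate evidence. At an unadjusted p under 0.05, 9 of the 10 passed, where 19.6% of all genes did. At the adjusted threshold 0 of the 10 passed, where 0.765% of all genes did, the closest being Mcm6 (0.75 ± 0.22, adjusted P value 0.0836) and Mcm7 (0.54 ± 0.16, adjusted P value 0.0845). With DESeq2, Mcm6 (0.71, adjusted P value 0.0323) and Mcm7 (0.50, adjusted P value 0.0415) passed, as they did in edgeR without the WT Control female 71F. Mcm7 alone passed in edgeR without the KO UV male 59M (adjusted P value 0.04996). With limma-trend 0 of the 10 passed.

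The estimates between genotypes had opposite signs without and with UV. Without UV, all 10 estimates were lower in KO than in WT, with a median of -0.39 log2 units (range -0.45 to -0.01). Of these, 0 of 10 passed the adjusted threshold, where 0.206% of all genes did, and 6 of 10 passed unadjusted, where 8.52% did. Mcm7 had the smallest p (-0.35 ± 0.11, adjusted P value 0.307). After UV, all 10 were higher in KO, with a median of 0.29 (range 0.11 to 0.46), 0 of 10 passed adjusted, where 3.31% of all genes did, and 3 of 10 unadjusted (Mcm6, Mcm10 and Cdc6), where 20.1% did. DESeq2 and limma-trend also gave 0 calls in both comparisons. The 3 comparisons share mice, so they are not separate evidence. Cdc6 without UV did not keep a sign: its estimate of -0.01 moved between -0.05 and 0.05 over the alternatives.

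Other replication genes were counted from lists, beside 34.5% of all genes higher and 36.5% lower in WT and 37.3% and 33.5% in KO. In the origin recognition complex, the platform for Cdc6, 4 of 6 subunits rose and 0 fell in WT, and 4 rose and 0 fell in KO. Orc1, the subunit that cycles, rose by 1.53 ± 0.22 in WT and 1.74 ± 0.22 in KO on the log2 scale, and Orc2 by 0.30 ± 0.07 and 0.39 ± 0.07. Of the MCM relatives that are not in the ring, Mcm9 fell by 1.02 ± 0.09 in WT and by 1.05 ± 0.09 in KO, Mcm8 did not pass in either, and Mcmbp, which binds MCM subunits, rose by 0.28 ± 0.05 and 0.13 ± 0.05.

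The counts below stand beside the same shares of all genes, 34.5% higher and 36.5% lower in WT and 37.3% and 33.5% in KO. Of 12 factors that fire the loaded ring, 3 rose and 0 fell in WT, and 9 rose and 0 fell in KO. Their medians were 0.10 and 0.57. Donson rose by 1.07 ± 0.11 in WT and 1.04 ± 0.11 in KO, and Gins3, a GINS subunit, by 0.63 ± 0.13 and 0.85 ± 0.13. Of 17 replication fork genes, 5 rose and 6 fell in WT, and 11 rose and 1 fell in KO, with medians of -0.10 and 0.49. Fen1, the flap endonuclease, rose by 0.80 ± 0.11 and 1.24 ± 0.11, and Prim1, a primase subunit, by 0.60 ± 0.07 and 0.71 ± 0.07. Of 5 genes that mark Cdt1 for degradation, 1 rose and 0 fell in WT, and 3 rose and 1 fell in KO. Ddb1 rose by 0.13 ± 0.04 and 0.11 ± 0.04, and Dtl, its substrate receptor for Cdt1, was at -0.20 ± 0.27 in WT and rose by 0.69 ± 0.27 in KO. For genotype by UV, edgeR called 0 genes of these 5 lists at the adjusted threshold, where 0.765% of all genes passed. At an unadjusted p under 0.05, 19.6% of all genes passed. Among the lists it was 0 of 6 origin recognition genes, 1 of 3 MCM relatives and 3 of 12 firing factors. It was 10 of 17 fork genes and 3 of 5 turnover genes.

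Genes of mitosis mark the late cell cycle. Of 12, 0 rose and 7 fell in WT, where 36.5% of all genes fell, and 4 rose and 0 fell in KO, where 37.3% of all genes rose. The median log2 fold changes were -0.58 and 0.20. In WT males 1 of the 12 was called higher and 1 lower (median -0.22), where 29.8% and 31.1% of all genes were. In WT females 0 were called higher and 7 lower (median -0.94), where 30.1% and 31.1% of all genes were. The sex-by-UV estimates in WT were negative for all 12 (median -0.71). Of these, edgeR called 0 at the adjusted threshold and 1 at an unadjusted p under 0.05, where 0% and 2.7% of all genes passed. Ccnb2, a mitotic cyclin, had -1.12 ± 0.24 in WT (adjusted P value 0.000158) and -0.11 ± 0.24 in KO (adjusted P value 0.696), and Mki67, which codes for the proliferation antigen Ki-67, -1.15 ± 0.25 (0.000216) and -0.49 ± 0.25 (0.0830). For genotype by UV, edgeR called 0 of the 12 at the adjusted threshold and 8 at an unadjusted p under 0.05. Of all genes, 0.765% and 19.6% passed. In WT Control mice Mki67 itself ranged from 52.6 to 327 cpm.

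**Figure D4:**
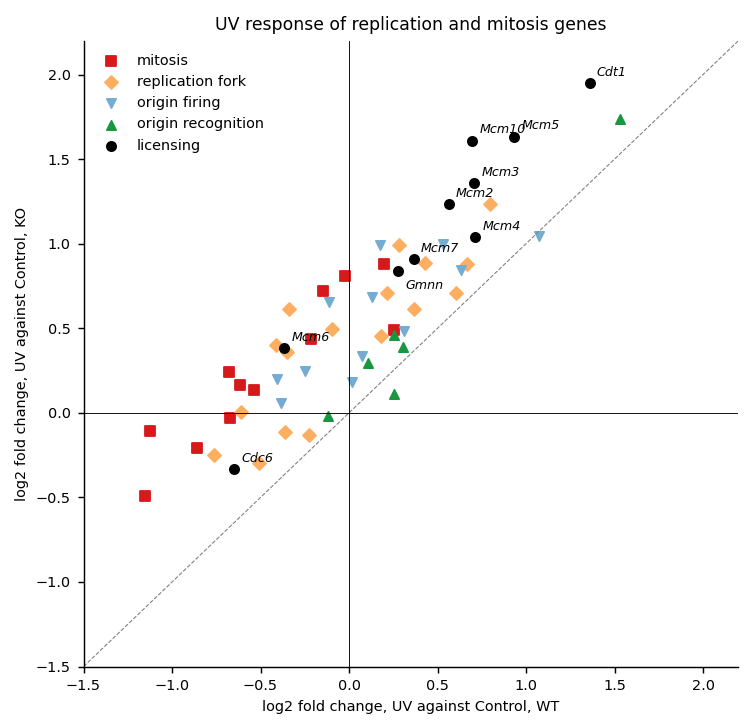
Log2 fold change of UV against Control in WT (x axis) and in KO (y axis) for the 10 licensing genes (black, named) and the genes of the origin recognition, origin firing, replication fork and mitosis lists. The dashed line marks equal change. The 10 licensing genes and all 12 mitosis genes lie above it, with licensing mostly to the upper right and mitosis on the left.

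The licensing and mitosis levels were also set against each other within each mouse. The mean log2 cpm of the 10 licensing genes minus that of the 12 mitosis genes lay between -0.68 and 0.34 in the 16 Control mice and between 0.40 and 0.99 in the 16 UV-exposed mice. The means were -0.18 ± 0.26 and 0.67 ± 0.16 (SD, n = 16 each), with -0.18 and 0.70 in WT and -0.17 and 0.64 in KO. The level of both programs varied widely between Control mice, with the WT female 61F highest (4.41 and 5.09) and the KO male 52M lowest (3.06 and 2.84). The highest UV-exposed mouse was the KO female 66F, at 5.11 and 4.71.

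**Figure D5:**
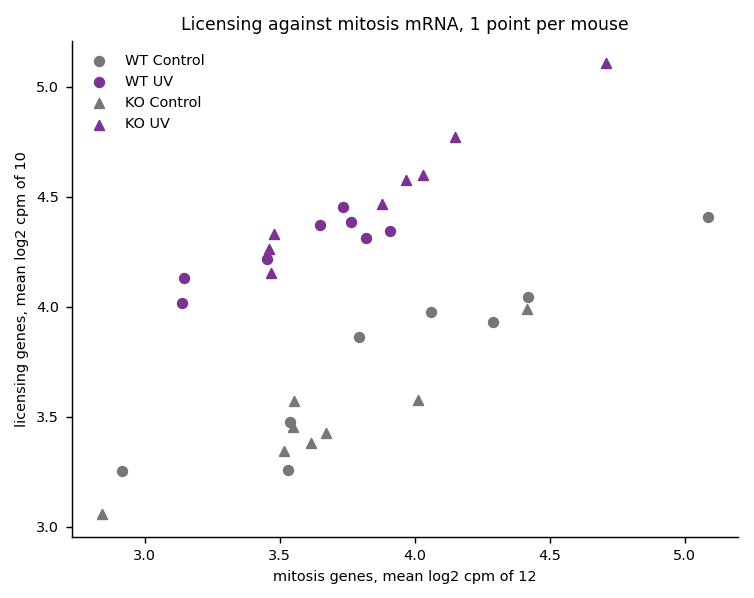
Mean log2 cpm of the 10 licensing genes (y axis) against that of 12 mitosis genes (x axis), 1 point per mouse (grey, Control; purple, UV; circles, WT; triangles, KO). UV-exposed mice form a band above the Control mice at the same mitosis level, with the KO female 66F at the upper end and the WT Control female 61F farthest right.

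Over the 32 mice, Mcm6 and Cdc6 stood apart from the rest. Among Mcm2, Mcm3, Mcm4, Mcm5 and Mcm7, the 10 pairwise Pearson correlations of log2 cpm were between 0.88 and 0.97. Mcm6 reached 0.41 to 0.62 with these subunits, and Cdc6 between -0.63 and 0.18 with the other 9 genes. After subtracting the mean of each of the 8 groups, Mcm6 correlated with the other subunits at 0.63 to 0.91, beside 0.52 to 0.91 among these, and Cdc6 at 0.12 to 0.56. Within a group, mice with more of the other subunits thus also had more Mcm6. These correlations share libraries, scaling and depth and carry no test.

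Outside the lists, the 5 genes of at least 5 cpm whose log2 cpm followed the mean of the 10 most closely over the 32 mice were Slc25a10, a mitochondrial dicarboxylate carrier (Pearson 0.96), Lamb3, a laminin chain of the basement membrane (0.96), Trip13, an ATPase of the spindle checkpoint (0.96), Dtymk, the thymidylate kinase (0.96), and Cks1b, a CDK-binding subunit (0.95). Lamb3 went from a mean of 74.4 to 158 cpm in WT and from 52.1 to 214 cpm in KO. Dtymk, which makes a precursor for DNA synthesis, went from 9.01 to 11.96 and from 6.92 to 16.03 cpm. All 5 shared the order of the licensing mean, lowest in KO Control and highest in KO UV. Their choice by correlation with that mean over the same mice largely fixes this order.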

How the data were processed

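Epidermal RNA of 32 mice was sequenced from stranded poly(A) libraries. The authors trimmed reads (cutadapt 1.8), aligned them with STAR 2.5.3a and counted them per gene with HTSeq 0.9.1; the submitters' notes name build GRCm38. They deposited raw read counts per gene, without normalization, and the 5 summary rows without a gene were left out (no feature, 6.80% to 9.75% of uniquely aligned reads; a further 31.4% to 38.8% of all aligned reads were not unique). Reads carry no molecular identifiers. Symbols and positions came from GENCODE M21 (GRCm38), which named 55141 identifiers, and promoter sequences from RefSeq.

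The paper's minimum of 1 cpm in any 1 mouse was kept. Counts were scaled by TMM and fitted over all 32 mice with 1 mean per group in edgeR 4.0.16 (quasi-likelihood, R 4.3.3). The paper used limma-trend, here an alternative. P values were adjusted by Benjamini-Hochberg over the 15546 genes of each of 11 contrasts at 0.05. UV contrasts over both sexes average the male and the female contrast. Log2 cpm used a prior count of 1, and ratios within a mouse used none. Levels per kilobase were divided by the merged length of all annotated exons of a gene, so rankings between genes depend on that length. The fit was tested on simulated counts in which only UV-exposed KO mice differed, in a small set of genes. That test does not cover data in which most genes change with UV. Each mouse tag is a separate animal, so p-values measure the spread between animals.

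The 10 genes and the gene lists were chosen with earlier results of these data known. Named genes are the 10, the 2 of each list with the smallest p in the WT, KO or genotype-by-UV contrast, the 5 most alike by Pearson correlation, Ppard, Cdkn1a and Mdm2; cell type marker genes and Mcm8 were named with their values in view. Alternatives were RLE scaling, DESeq2, limma-trend, filterByExpr, no filter, a fit of 1 genotype, sex as an additive term, and leaving out each mouse in turn.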

Additional observations from a re-analysis of the deposited data

Results flagged for a closer look

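In each of the 8 groups of 4 mice, the mouse farthest out was compared with the range of its group (Dixon's test at the 95% level). Of 80 comparisons, 10 genes in 8 groups, 2 were past the value, where chance gives about 1 in 20. Both were the KO Control female 62F. Its Mcm2 level was 23.4 cpm, with the other 3 mice between 12.6 and 14.3 cpm. Its Mcm6 level was 38.4 cpm, with the other 3 between 25.8 and 26.3 cpm. This mouse also had the highest mitosis mean of the KO Control mice (4.42 log2 cpm), and its Mcm6 level relative to the other ring subunits, 0.56, was within the range of its group.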

How the results depend on the processing

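No paired analysis was possible because no mouse tag is shared between the groups compared. Of 4200 values of single genes under 7 other settings and 32 removals of a mouse, 4121 kept their side of the threshold, 51 lost the call and 28 gained one. None that passed changed sign, while 92 values that did not pass did. By removals, the number of the 10 genes called ranged from 8 to 9 for UV in WT, 9 to 10 for UV in KO, 0 to 2 for genotype by UV, 5 to 8 in WT males, 3 to 6 in WT females, 8 to 10 in KO males and 7 to 8 in KO females, and stayed at 0 in the 4 other contrasts. WT females gave 3 without 63F or 73F, genotype by UV gave 1 call without 59M and 2 without 71F, WT males gave 5 without 54M, and DESeq2 gave 2 for genotype by UV, where it called 841 genes in all against 119 in edgeR; the cause was not tested. Over all genes, removals of a mouse moved genotype by UV between 56 (without 69M) and 346 (without 59M), and KO against WT after UV, 514 genes with all mice, between 133 (without 51F) and 983 (without 59M), with 209 without 54F. In the latter DESeq2 called 1116 genes, limma-trend 260 and edgeR without a filter 263. Without a filter genotype by UV gave 55, and DESeq2 called 78 genes against 32 for KO against WT in Control. None of these settings called any of the 10 in KO against WT. With 4 mice per group, precision is lowest in the sex contrasts, whose standard errors reach 0.45 log2 units.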
